A study of Mus musculus with 23 samples.

Results

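The comparison set mouse oocytes grown and matured entirely in culture against the same culture's oocytes at an earlier stage: metaphase II (MII) oocytes against oocytes of secondary follicles. Of the 22784 genes in the deposited table, the 11701 with 1 FPKM or more in either culture column were compared, where FPKM is fragments scaled for transcript length and sequencing depth. The series measured embryonic stem cells, the primordial germ cell-like cells (PGCLCs) made from them, later germ cells and oocytes of the culture route, and germ cells and oocytes taken from mice as their counterparts. The study's 23 samples fall into 8 groups, and each of the 4 oocyte groups used here held 3 biological samples, which the table gives as 1 FPKM value per gene and group. The differences below therefore have no replicate check, no error and no test, and the read depth behind them is unknown.

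Both culture groups had the strain C57BL/6 X 129 and the same start. PGCLCs, germ cell precursors induced from stem cells for 6 days, were combined as 5000 cells with 50000 female E12.5 gonadal somatic cells into a reconstituted ovary, given new medium at day 4 and exposed to 500 nM ICI182780, an oestrogen receptor antagonist, from day 7 to day 10. Secondary follicle oocytes were taken at day 21. For the MII group single follicles were then grown for 11 days with FSH at 0.1 IU/ml. Serum (FCS) was listed at 10% for the secondary follicle group and at 5% for the MII group, so it also differed with the stage. The growth factors BMP15 and GDF9 were present at 15 ng/ml each until day 2, when the follicles were also treated with collagenase. Oocyte-cumulus complexes were finally matured for 16 hours with FSH, EGF at 4 ng/ml and hCG at 1.2 IU/ml, and the cumulus cells were stripped with hyaluronidase. The animal groups were B6D2F1 oocytes: secondary follicle oocytes sorted at 8 d.p.p. with BVSC transgenes, which are fluorescent germ cell reporters, and MII oocytes of females of 8 weeks. Strain and route of production thus differ together between culture and animal and cannot be told apart. Libraries were made from the poly(A)+ RNA of 337 to 812 secondary follicle oocytes or 99 to 134 MII oocytes, so the number of cells also differed with the stage.

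Between these stages a mouse oocyte grows, fills with stored messages, falls silent in transcription, and then resumes meiosis until it arrests at metaphase II. During growth many messages are kept with short poly(A) tails. On meiotic resumption a subset receives longer tails through cytoplasmic polyadenylation, which depends on a U-rich element near the 3′ end that the CPEB1 protein binds, while a large share of the others is deadenylated and degraded. Because poly(A)+ RNA was selected, a longer tail and more message cannot be told apart in these values.

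Gene levels were spread far apart between the stages. On the log2(FPKM + 1) scale, MII minus secondary follicle, 3409 of the 11701 genes were higher by 2-fold or more (29.1%), 4070 were lower by as much (34.8%), and 4222 did neither. By 8-fold or more, 635 genes were higher and 559 lower. The quartiles of the differences were -1.45 and 1.22, their median was -0.28, and their SD across genes was 1.85. A difference on this scale understates the change of genes near 1 FPKM.

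The columns themselves did not add up alike. FPKM over all genes summed to 349451 in secondary follicle oocytes and to 616260 in MII oocytes, a ratio of 1.76. With the columns set to equal sums the median over the compared genes was -0.92, a shift of -0.65, and 2157 genes were higher (18.4%) against 5669 lower (48.4%). The share of higher genes among those called thus went from 45.6% to 27.6%, so medians of the gene lists below are given on both scalings. At MII the values were gathered in fewer and higher genes: 9919 genes reached 1 FPKM against 10879 before, while 62 reached 1000 FPKM against 21. The highest gene of the secondary follicle column was Zp3, a protein of the egg coat, at 5094 FPKM. That of the MII column was Zbed3, a member of the subcortical maternal complex, at 13848 FPKM.

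Of the compared genes, 9097 had 1 FPKM or more at both stages, 1782 at the secondary follicle only and 822 at MII only. At the edge of the selection, Rundc1 was just inside with 1.00 FPKM in secondary follicle oocytes and 0.180 at MII, and Cts3 was just outside with 0.00797 and 0.999. Some abundant genes with near-identical copies lay below the limit, among them Gapdh, a glycolytic enzyme, listed at 0.00761 and 0.0822 FPKM. Levels of genes with such copies, which include several ribosomal proteins and oocyte gene families, are uncertain because reads shared between copies can be split or dropped. Counts for a gene list are over its members with 1 FPKM or more in either column, which left out 89 of 333 numbered zinc finger genes, 22 of 78 cytosolic ribosomal proteins, 14 of 37 imprinted genes and at most 11 members of any other list.

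**Figure D1:**
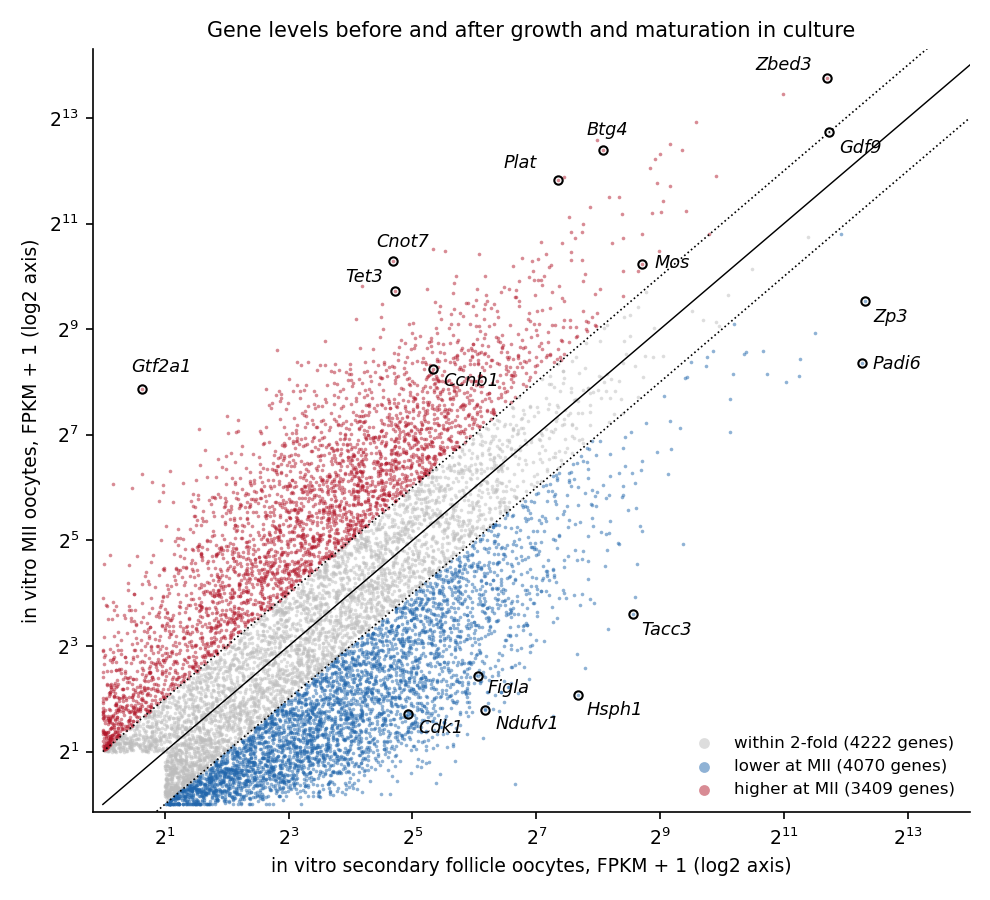
Each point is 1 of the 11701 genes, placed by its FPKM + 1 in secondary follicle oocytes (horizontal) and MII oocytes (vertical) from culture on log2 axes, with the solid line at equality, dotted lines at 2-fold, and some genes of the text named. The 635 genes higher by 8-fold or more include Plat, Btg4, Cnot7 and Tet3, and Gdf9 sits on the upper dotted line.

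Leaving aside symbols of predicted genes, clones and small RNAs, and among genes with 10 FPKM or more at the higher stage, the 12 with the largest positive differences reached MII levels between 62.9 and 1250 FPKM. Gtf2a1, a subunit of the general transcription factor TFIIA, went from 0.543 to 232 FPKM, a difference of 7.24. Cnot7, a catalytic subunit of the CCR4-NOT deadenylase, went from 24.8 to 1250 FPKM (5.60). Khsrp, an RNA-binding protein that promotes decay of AU-rich messages, went from 6.00 to 389 FPKM (5.80). Tiparp, an ADP-ribosyltransferase, stood at 17.3 and 899 FPKM (5.62). The others were Spp1, Nupr1, Gli3, Prrg1, Casp8ap2, Pnma5, Ireb2 and Foxn2. All 12 were also higher by 2-fold or more in the animal step, where Gtf2a1 went from 0.741 to 465 FPKM. Spp1, which encodes the secreted protein osteopontin, went from 0.126 to 65.7 FPKM in culture and from a listed 0 to 17.6 FPKM in the animal.

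The 12 largest negative differences under the same rule, which passed over the clone-named 4930562C15Rik, left MII levels of 0.308 to 14.1 FPKM. Zfp707, a zinc finger gene, went from 100.2 to 0.308 FPKM, a difference of -6.27. Hsph1, a cochaperone of Hsp70, went from 204 to 3.23 FPKM (-5.60). Tacc3, which binds spindle microtubules, went from 376 to 11.2 FPKM (-4.95). Bud31, a splicing factor, went from 286 to 8.94 FPKM (-4.85), and Ckb, brain-type creatine kinase, from 387 to 14.1 FPKM (-4.68). Sp110, Noto, Ict1, Nat9, Mgmt, Tuba4a and Mrpl12 completed the list. All 12 were lower in the animal step too, with differences from -4.82 to -7.41.

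Messages known to be polyadenylated during maturation formed a list of 18 genes. Of these 17 were higher at MII (94.4%) and none lower, beside 29.1% and 34.8% over all compared genes. The list was written with earlier results of these data known, so its count is a description. The median difference of the 18 was 3.15 with the deposited values and 2.34 with equal sums, where 14 were higher and 1 lower. Plat, tissue plasminogen activator and a textbook case of a stored oocyte message, went from 162 to 3607 FPKM, a difference of 4.47. Btg4, the adaptor that brings CCR4-NOT to messages during maturation, went from 270 to 5370 FPKM (4.31). Dcp1a, a decapping coactivator, went from 39.3 to 1473 FPKM (5.19). Each of these was above 1000 FPKM at MII.

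The smaller differences of the list included genes of meiotic arrest. Mos, the kinase that starts the cytostatic MAP kinase pathway, went from 419 to 1204 FPKM, a difference of 1.52 that came to 0.70 with equal sums. Ccnb1, cyclin B1, went from 39.4 to 301 FPKM (2.90), and Dazl, an RNA-binding translational activator, from 50.5 to 355 FPKM (2.79). Tpx2, an activator of Aurora A, stood at 33.9 and 130 FPKM (1.91). Cdc6, a replication licensing factor, was the exception at 7.77 and 4.31 FPKM, a difference of -0.72 that came to -1.42 with equal sums. In the animal step 17 of the 18 were likewise higher and none lower (median 3.97), and with equal sums 15 were higher and 1 lower (median 2.51).

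**Figure D2:**
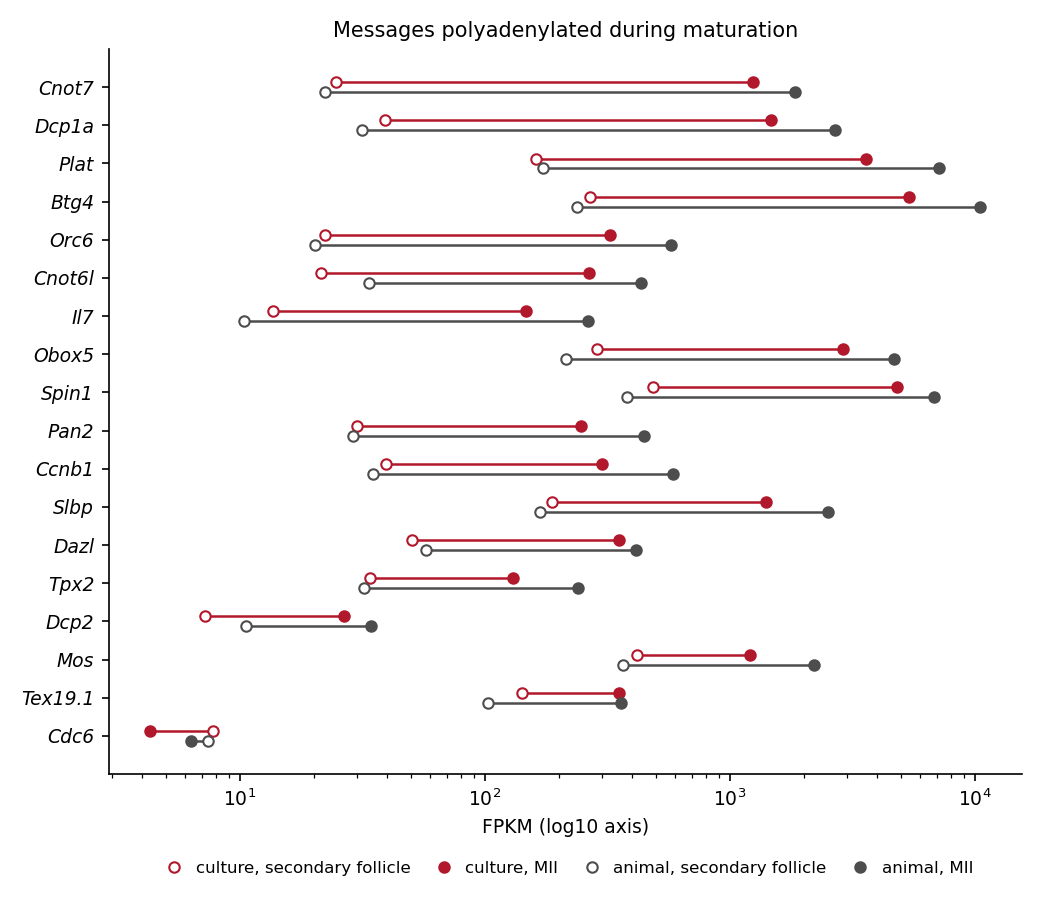
FPKM on a log10 axis for the 18 messages polyadenylated during maturation, ordered by their difference in culture, with open points for secondary follicle oocytes, filled points for MII oocytes, red for culture and grey for the animal. In 17 genes the filled point lies to the right in both routes, and Cdc6 is the gene that runs the other way.

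For the genes of this list, the end of the 3′ untranslated region was read from the GENCODE M21 transcripts of GRCm38, the assembly also called mm10. The letters searched on the sense strand of its last 150 bases were TTTTAT and TTTTAAT, the cytoplasmic polyadenylation element in DNA letters. Of the 17 listed messages with an untranslated region that long, 7 held the element, and Mos, whose region has 126 bases, was too short for the window. Over all compared genes with a window the element stood in 26.2%, and in 41.6% of those higher at MII. The 7 are given here as 30 bases around a match, 5′ to 3′, with the match in capitals.
Plat, chr8:22782744-22782773, plus strand: agtatatttataTTTTAATctattttagtt
Ccnb1, chr13:100778770-100778799, minus strand: ttgctgTTTTAATttatacatctgatatca
Btg4, chr9:51119797-51119826, plus strand: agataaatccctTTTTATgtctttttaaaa
Dcp1a, chr14:30527009-30527038, plus strand: gcaaatatatttTTTTAATaaaatttcaaa
Orc6, chr8:85308005-85308034, plus strand: tggttttttaaaTTTTATttcactaaatgt
Pan2, chr10:128321324-128321353, plus strand: aaataaaagtatTTTTATctcattagaaaa
Spin1, chr13:51152473-51152502, plus strand: tctgtaagtaatTTTTATaattatgatgta

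Among the 12 genes named above for their positive differences 9 held the element, and among the 12 named above for their negative differences none of the 11 with a window did. Over all genes with a window it stood in 41.6% of those higher and 13.9% of those lower. Of the positive 12, Nupr1, Tiparp and Cnot7 held no match, and neither did Obox5, an oocyte gene higher at MII by 3.33. The sequences of 4 genes of the first kind follow. Those of 4 oocyte genes described further on, higher at MII by 2.80 or more, come after them. All genes shown hold a match, so they are examples and not a tally.
Gtf2a1, chr12:91555262-91555291, minus strand: ataataaagataTTTTATttattgccagca
Khsrp, chr17:57021079-57021108, minus strand: gcagtttttactTTTTATcgctcgttttta
Casp8ap2, chr4:32653176-32653205, plus strand: agccaaggttttTTTTATctatattaaata
Pnma5, chrX:73034009-73034038, minus strand: tgtttttaatggTTTTAATacaatttttgt
Rfpl4, chr7:5109907-5109936, minus strand: tgctttcctTTTTATttgctataatattag
Bcl2l10, chr9:75351579-75351608, plus strand: cccttaatacatTTTTAATaacttcaaatt
Wee2, chr6:40466784-40466813, plus strand: tgtaaataaagaTTTTATcttatccaaaga
Fbxo43, chr15:36150145-36150174, minus strand: gtatatatgtgtTTTTATactatacacaca

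Across the 9860 compared genes with such a window, genes with the element were higher at MII more often than genes without it. Of the 2584 genes with 1 or more matches 49.1% were higher and 17.3% lower, and of the 7276 with none 24.5% were higher and 38.1% lower. The share of higher genes was 46.2% at 1 match, 59.1% at 2 matches and 64.9% at 3 or more, the last over 97 genes. The element stood in 41.6% of higher genes, 13.9% of lower genes and 24.2% of the rest, beside 23.5% of the 18287 coding genes of the whole annotation with a window. With equal sums 34.4% of genes with the element were higher against 14.7% without it. With the deposited values the median difference in the animal step was 1.33 with the element and -0.66 without it.

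Base composition moved with the same values. The reversed letters TATTTT and TAATTTT, which have the same bases in the opposite order and stand in 25.6% of annotated genes with a window, gave 43.9% higher with 1 or more matches and 25.9% with none. Within bins of A and T content of the window, genes with the element were higher in 34.2% against 16.2% at 50 to 60%, in 45.6% against 30.3% at 60 to 70%, and in 58.4% against 43.6% at 70 to 80%. Their part in the result was not tested. A match is a run of letters and was not shown to be a working site. The ends were those of the annotated transcript chosen for each gene, and whether oocytes use them was not tested.

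**Figure D3:**
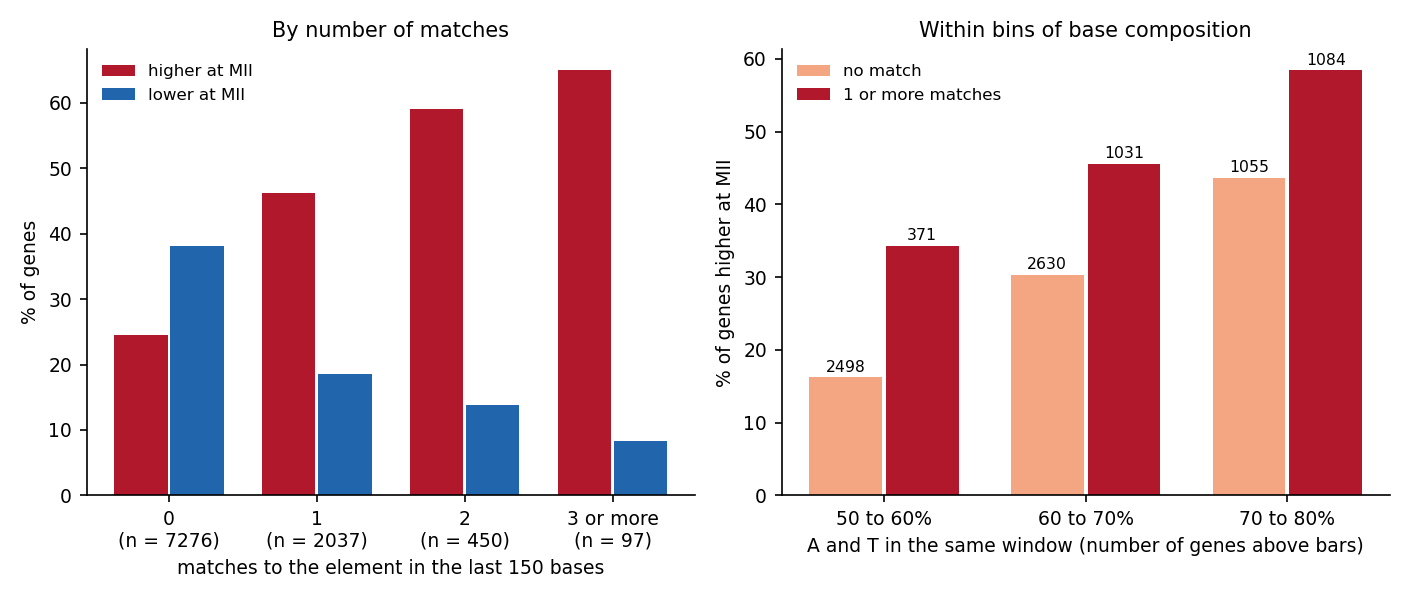
Left, the percentage of genes higher and lower at MII by the number of matches to the element in the last 150 bases of the 3′ untranslated region. Right, the percentage higher within bins of A and T content of the same window, for genes with and without a match. The share higher goes from 24.5% with none to 64.9% with 3 or more, and within each bin the bar for genes with a match is the taller one.

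Other features of the 3′ end differed between the genes as well. Genes with the polyadenylation signal AATAAA or ATTAAA in the window were higher in 33.2% of cases against 19.4% without it. An AU-rich motif, TATTTAT, which contains part of the reversed letters, went with 43.1% against 30.1%, and the Pumilio motif TGTANATA with 38.2% against 30.4%. These letters stand in 80.4%, 6.20% and 5.99% of annotated genes with a window. Short untranslated regions went with lower levels: of the 964 genes with fewer than 150 bases 15.2% were higher and 55.3% lower. At 4000 bases or more the shares were 38.6% and 19.4%. The egg coat genes Zp1, Zp2 and Zp3, described next, have 34, 49 and 13 bases. Transcript length ran the same way, with 18.4% higher and 49.7% lower among transcripts under 1000 bases and 40.2% and 19.5% at 6000 or more.

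Genes of the egg coat and of sperm-egg fusion were mostly lower at MII. Of 10 genes 6 were lower and 2 higher (median -1.51), and with equal sums 8 were lower and 2 higher (median -2.32). Zp3 went from 5094 to 739 FPKM (-2.78), Zp2 from 2885 to 483 FPKM (-2.58), and Zp1 from 1618 to 383 FPKM (-2.08). Cd9, a tetraspanin needed for fusion with sperm, went from 172 to 44.3 FPKM (-1.94). The 3 coat proteins were between 383 and 739 FPKM at MII in culture, whereas in the animal Zp3 stood at 79.8, Zp2 at 37.8 and Zp1 at 35.6 FPKM. The higher genes were Oosp1, an oocyte-secreted protein, at 650 and 5368 FPKM (3.04), and Oosp3 at 183 and 2224 FPKM (3.60).

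Oocyte growth factors and their receptors moved less. Of 10 genes 2 were higher and 1 lower, and the median of 0.59 turned to -0.20 with equal sums and to -0.19 with quantile normalization. Gdf9, which the oocyte secretes to direct its granulosa cells, went from 3394 to 6768 FPKM, just short of 2-fold at 1.00 and 0.18 with equal sums. Bmp15, its partner, went from 337 to 1098 FPKM, a difference of 1.70 that came to 0.88 with equal sums, under 2-fold. Bmpr2, the type II receptor both factors use, went from 4.18 to 77.2 FPKM (3.92). Gja4, the connexin of the oocyte's gap junctions to granulosa cells, was the lower one, at 492 and 101 FPKM (-2.28).

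Maternal effect genes, whose products in the egg serve the early embryo, went in both directions. Of 22 genes 13 were lower and 5 higher (median -1.23, and -2.05 with equal sums). Among the subcortical maternal complex, Padi6, which is needed for the cytoplasmic lattices, went from 4915 to 329 FPKM (-3.90). Khdc3 stood at 1114 and 131 FPKM (-3.08), Tle6 at 2088 and 255 FPKM (-3.03), Nlrp5 at 1123 and 203 FPKM (-2.46), and Ooep at 1161 and 285 FPKM (-2.02). All 5 were above 1000 FPKM in secondary follicle oocytes and between 131 and 329 FPKM at MII. Zbed3 of the same complex went the other way, from 3302 to 13848 FPKM (2.07).

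Outside the complex the maternal effect genes were as divided. Npm2, which remodels sperm chromatin, went from 1698 to 283 FPKM (-2.58), and Zar1l, a zygote arrest protein, from 276 to 21.7 FPKM (-3.61). Its relative Zar1 stood at 1424 and 1133 FPKM, a difference of -0.33. Tet3, the oxidase that acts on paternal DNA methylation in the zygote, went from 25.4 to 847 FPKM (5.01), and Sall4, a zinc finger factor, from 26.3 to 370 FPKM (3.77). Dppa3, which shields maternal DNA methylation, stood at 434 and 835 FPKM, a difference of 0.94 and of 0.12 with equal sums.

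Transcription regulators of the growing oocyte split into opposite groups. Of 16 genes 8 were higher and 6 lower, and the median of 0.46 turned to -0.32 with equal sums and to -0.15 with quantile normalization. The factors that drive the oocyte programme in early follicles were lower. Figla, which activates the egg coat genes, went from 65.3 to 4.37 FPKM (-3.62), Nobox from 389 to 47.7 FPKM (-3.003), Sohlh1 from 23.2 to 0.572 FPKM (-3.94), and Lhx8 from 134 to 39.3 FPKM (-1.75). The Obox homeobox genes were higher, with Obox5 at 287 and 2892 FPKM (3.33), Obox1 at 187 and 1839 FPKM (3.29) and Obox2 at 215 and 2046 FPKM (3.25). Foxo3, which holds follicles dormant, stood at 33.6 and 171 FPKM (2.32). Pou5f1, also called Oct4, stood at 232 and 220 FPKM, a difference of -0.07.

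Control of Cdk1, the kinase whose activity drives and holds metaphase, was measured over 34 genes. Of these 17 were higher and 6 lower (median 0.90). With equal sums 11 were higher and 12 lower (median 0.11). The message of Cdk1 itself went from 29.4 to 2.27 FPKM (-3.22) while its cyclin Ccnb1 was higher. Of the kinases that inhibit Cdk1, the oocyte form Wee2 went from 105 to 738 FPKM (2.80) and the somatic form Wee1 from 24.4 to 1.15 FPKM (-3.56).

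The anaphase-promoting complex and its regulators were also divided. Cdc27, a subunit, went from 6.98 to 194 FPKM (4.61), and the activator Cdc20 from 36.9 to 223 FPKM (2.56). The other activator, Fzr1, which keeps prophase oocytes arrested, went from 207 to 39.95 FPKM (-2.34). Fbxo43, also called Emi2, which inhibits the complex to hold the MII arrest, went from 13.7 to 234 FPKM (4.00). Its relative Fbxo5, or Emi1, went from 83.1 to 23.2 FPKM (-1.80). Both relatives had the same directions in the animal step, at 5.24 and -4.42.

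Of 34 genes of the Aurora kinases, the spindle and its checkpoint, 18 were higher and 10 lower (median 1.16), and with equal sums 12 were higher and 13 lower (median 0.37). Bub1b, the checkpoint protein BubR1, went from 101 to 777 FPKM (2.93), and its partner Mad2l1 from 53.8 to 386 FPKM (2.82). Pttg1, securin, which guards sister chromatids, went from 960 to 3823 FPKM (1.99). Fmn2, the formin that moves the oocyte's spindle, went from 6.57 to 109 FPKM (3.87), and its actin nucleation partner Spire1 from 32.6 to 244 FPKM (2.87). Bub1 was lower at 22.1 and 4.16 FPKM (-2.16), as was the meiotic cohesin Smc1b at 13.1 and 1.59 FPKM (-2.45).

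Signalling genes of meiotic arrest and egg activation followed no single direction. Among 11 genes of cAMP and prophase arrest 6 were higher and 1 lower (median 1.23, and 0.44 with equal sums). Pde3a, the phosphodiesterase whose activity lets meiosis resume, went from 22.6 to 111 FPKM (2.25), and the lower gene was Gnas, a stimulatory G protein subunit, at 677 and 269 FPKM (-1.33). Among 24 genes of egg calcium signalling 7 were higher (29.2%) and 8 lower (33.3%), beside 29.1% and 34.8% over all compared genes. Their median was -0.36, and with equal sums 5 were higher and 12 lower (median -1.05). Slc39a10, a zinc importer, went from 16.7 to 399.6 FPKM (4.50), while Orai1, a store-operated calcium channel, went from 79.5 to 3.18 FPKM (-4.27).

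Replication licensing genes, which an MII oocyte holds ready for the first embryonic cycle, numbered 30. Of these 10 were higher (33.3%) and 9 lower (30%), beside 29.1% and 34.8% over all compared genes. Their median of 0.21 turned to -0.56 with equal sums and to -0.11 with quantile normalization. The origin recognition subunit Orc6 went from 22.2 to 324 FPKM (3.81) and Dbf4, activator of the Cdc7 kinase, from 64.2 to 746 FPKM (3.52). The GINS subunits of the replicative helicase were among the lower genes, with Gins2 at 110 and 8.83 FPKM (-3.50) and Gins4 at 64.1 and 4.48 FPKM (-3.57).

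Enzymes that shorten and destroy messages were measured over 32 genes, of which 15 were higher and 6 lower. Some of them, such as Btg4, Cnot7 and Dcp1a, were also in the list of polyadenylated messages, so the counts of both lists overlap. The median of the 32 genes, 0.47, turned to -0.19 with equal sums, where 11 were higher and 11 lower. Besides Btg4 and Cnot7, the deadenylase subunit Cnot6l went from 21.5 to 267 FPKM (3.57) and Cnot8 from 24.5 to 315 FPKM (3.63). Pan2 and Pan3, which form a separate deadenylase, stood at 30.02 and 246 FPKM (2.99) and at 6.05 and 83.4 FPKM (3.58). The non-catalytic subunits were not all higher: Cnot1, the scaffold, went from 44.6 to 5.07 FPKM (-2.91), and Cnot10 from 27.5 to 1.501 FPKM (-3.51).

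Proteins that store messages and hold back their translation were divided. Of 29 genes 11 were lower (37.9%) and 10 higher (34.5%), beside 34.8% and 29.1% over all compared genes. The median was -0.44, and with equal sums 17 were lower and 8 higher (median -1.19). Ybx2, which coats stored messages as MSY2, went from 572 to 153 FPKM (-1.89), Cpeb1 from 336 to 107 FPKM (-1.64), and the helicase Ddx6 from 36.3 to 1.59 FPKM (-3.85). Cpeb4, a relative of Cpeb1 translated during maturation, went from 1.13 to 78.8 FPKM (5.23). Lsm14a, a translational repressor, went from 70.9 to 1024 FPKM (3.83), and Lin28a, an RNA-binding protein, from 20.7 to 319.8 FPKM (3.88). Ddx4, the germ cell helicase also called Vasa, stood at 91.7 and 44.7 FPKM (-1.02).

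Genes of the small RNA pathways, which in mouse oocytes include siRNAs and piRNAs, were lower in 19 of 26 cases and higher in 2. Their median was -1.75, and -2.44 with equal sums. Gtsf1, a piRNA cofactor, went from 282 to 27.3 FPKM (-3.32), Gpat2 from 25.9 to 0.363 FPKM (-4.30), and Piwil2, a PIWI protein, from 11.7 to 0.148 FPKM (-3.47). The higher genes were Ago3 at 3.22 and 47.3 FPKM (3.52) and Dicer1, which cuts the precursors of siRNAs and microRNAs, at 65.0 and 144 FPKM (1.13, and 0.32 with equal sums).

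Chromatin genes included several large positive differences. Of 36 enzymes of histone lysine methylation 17 were higher and 8 lower (median 0.91, and 0.20 with equal sums). The H3K27 demethylases Kdm6a and Kdm6b went from 7.04 to 264 FPKM (5.05) and from 12.3 to 293 FPKM (4.47). The Polycomb methyltransferase of the same residue was also higher in its core subunits: Ezh2 stood at 108 and 440 FPKM (2.02), Eed at 32.6 and 216 FPKM (2.69) and Suz12 at 16.5 and 266 FPKM (3.93). The H3K9 methyltransferase Ehmt2 went from 17.6 to 3.16 FPKM (-2.16) and its partner Ehmt1 from 7.41 to 52.0 FPKM (2.66).

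Of 22 histone variants and chaperones 12 were higher and 6 lower (median 1.35, and 0.57 with equal sums). H1foo, the oocyte linker histone, went from 2036 to 11200 FPKM (2.46), and H3f3b, which encodes histone H3.3, from 82.8 to 600 FPKM (2.84). The replication-coupled assembly factor subunits Chaf1a and Chaf1b were lower, at 165 and 14.1 FPKM (-3.45) and at 12.1 and 0.560 FPKM (-3.07). Of 17 DNA methylation genes 5 were higher (29.4%) and 6 lower (35.3%), beside 29.1% and 34.8% over all compared genes. Their median was -0.09, and -0.88 with equal sums. Dnmt1, the maintenance methyltransferase, stood at 723 and 334 FPKM (-1.11). Dnmt3l, the cofactor of de novo methylation in oocytes, stood at 62.1 and 147 FPKM (1.23, and 0.42 with equal sums), and Dnmt3a at 29.7 and 27.9 FPKM (-0.09).

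Gene families largely restricted to the oocyte stood in contrast to each other. Of 24 Obox, Khdc1, Oas1, Oog, Tcl1 and related genes 16 were higher and 4 lower (median 3.23, and 2.41 with equal sums). Rfpl4, a RING finger protein of the egg, went from 251 to 6115 FPKM (4.60), Bcl2l10, an oocyte member of the Bcl2 family, from 761 to 7736 FPKM (3.34), and Tcl1 from 508 to 5104 FPKM (3.33). The Tcl1b members Tcl1b1 to Tcl1b5 differed by 3.22 to 3.75. Within the Oas1 genes directions differed, with Oas1d at 467 and 2336 FPKM (2.32) and Oas1h at 334 and 55.2 FPKM (-2.57).

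Of 12 oocyte NLRP genes 5 were lower and none higher (median -0.66, and -1.47 with equal sums). In the animal step the median was 0.02, and -1.45 with equal sums. Nlrp14 went from 2416 to 276 FPKM (-3.13), Nlrp2 from 103 to 11.1 FPKM (-3.10), and Nlrp9b from 238 to 42.2 FPKM (-2.47). Of 12 oocyte F-box genes with WD40 repeats 8 were lower and none higher (median -1.30, and -2.11 with equal sums). Fbxw24, the highest of them in secondary follicle oocytes, stood at 1165 and 548 FPKM (-1.09), and Fbxw13 at 91.8 and 11.1 FPKM (-2.94). Because many of these genes lie in clusters of close copies, values of single members are uncertain.

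Genes that make proteins and energy in every cell were lower in large numbers. Of 75 nuclear genes of oxidative phosphorylation 51 were lower and 2 higher (median -1.83), and with equal sums 63 were lower and none higher (median -2.60). Ndufv1, a core subunit of complex I, went from 71.0 to 2.45 FPKM (-4.38), Ndufb7 from 87.7 to 4.08 FPKM (-4.13), and Uqcrc1 of complex III from 59.0 to 2.60 FPKM (-4.06). Of 72 mitochondrial ribosomal proteins 48 were lower and 4 higher (median -1.67, and -2.43 with equal sums). Mrpl12 went from 83.7 to 2.39 FPKM (-4.64).

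Cytosolic ribosomal proteins had 56 of 78 genes at 1 FPKM or more in either column, of which 42 were lower and 2 higher (median -1.61, and -2.19 with equal sums). Rps15 went from 228 to 23.3 FPKM (-3.24). Of 50 translation factors 26 were lower and 11 higher (median -1.16, and -1.90 with equal sums), with Eif3g, a subunit of the scaffold factor eIF3, at 208 and 12.7 FPKM (-3.93). Of 35 proteasome subunits 22 were lower and 3 higher (median -1.31, and -2.07 with equal sums), and the ATPase subunit Psmc2 went from 71.1 to 2.50 FPKM (-4.36). The animal step had medians of lower levels in the same lists, at -3.32 for oxidative phosphorylation, -2.34 for cytosolic ribosomal proteins and -1.61 for the proteasome. With equal sums these animal medians were -4.71, -3.58 and -3.02. Many of these genes have short transcripts, a property that also went with lower levels over all genes, and its part in the result was not tested.

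**Figure D4:**
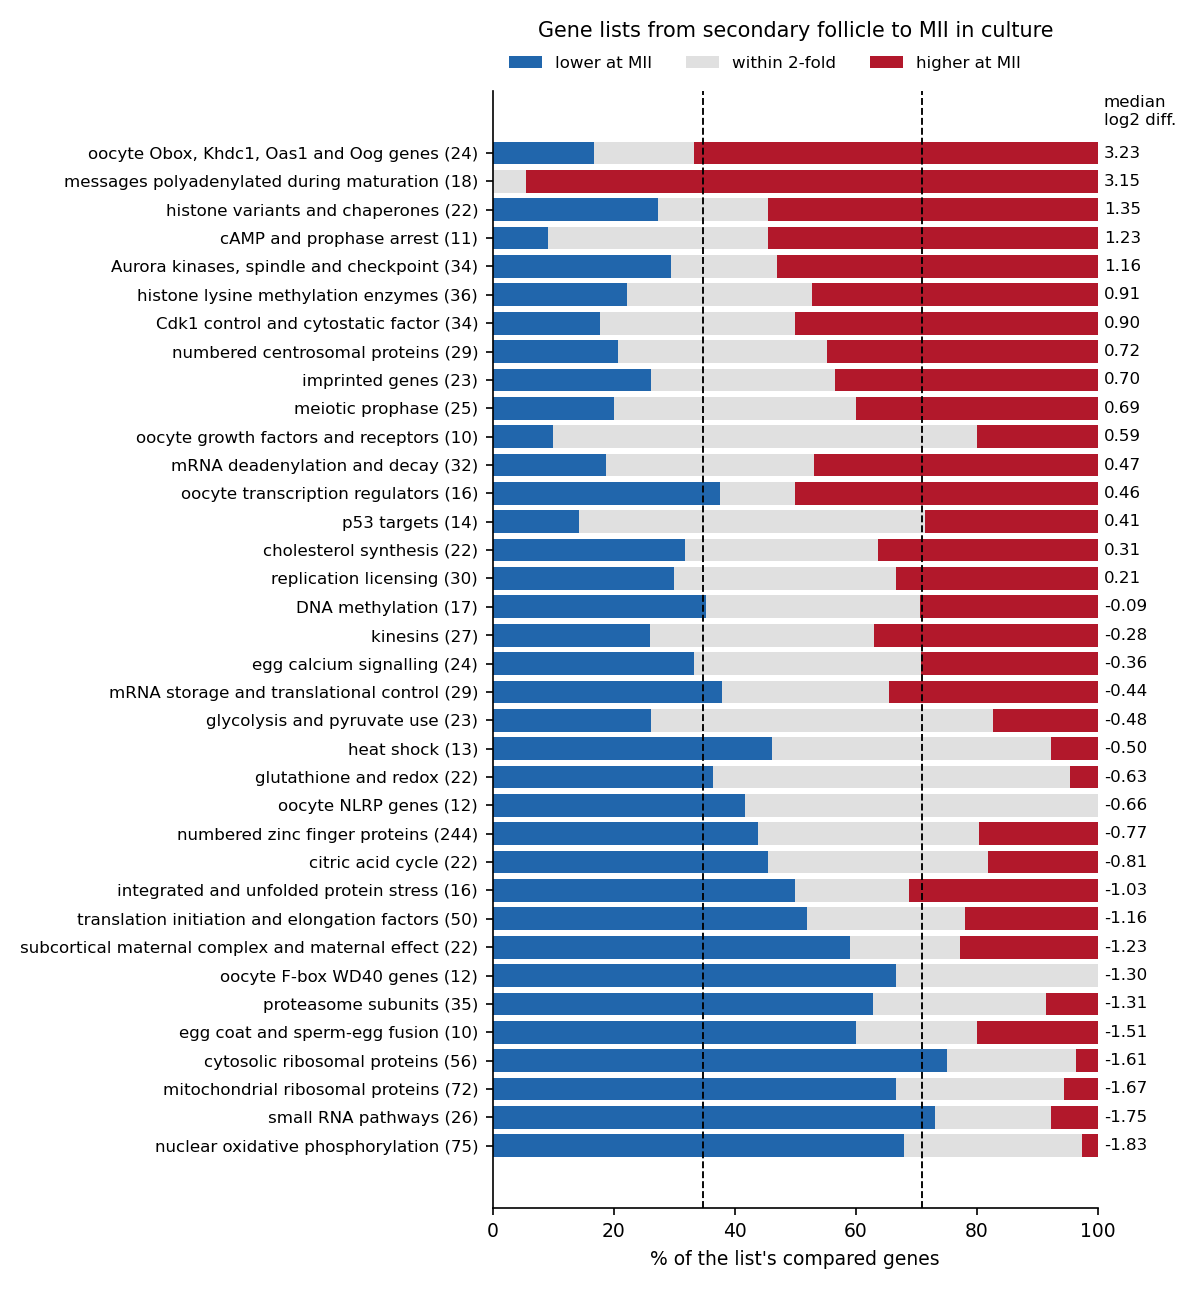
For each of 36 gene lists, with the number of compared genes in brackets, the bar splits its genes into lower at MII, within 2-fold and higher at MII on the deposited scale, and the number at the right is the median log2 difference. Dashed lines mark the shares over all 11701 genes, 34.8% lower at the left and 29.1% higher at the right. The lists run from a median of 3.23 for the Obox and related genes to -1.83 for oxidative phosphorylation.

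Metabolic and stress genes differed from list to list. Of 22 citric acid cycle genes 10 were lower and 4 higher (median -0.81, and -1.59 with equal sums), with Ogdh at 32.2 and 1.79 FPKM (-3.57). Of 23 glycolysis and pyruvate genes 6 were lower and 4 higher (median -0.48), and with equal sums 12 were lower and 3 higher (median -1.12). Ldhb, the lactate dehydrogenase subunit abundant in oocytes, stood at 2692 and 1724 FPKM (-0.64), and Aldoa, an aldolase, went from 118 to 21.1 FPKM (-2.43). Of 22 cholesterol synthesis genes 8 were higher (36.4%) and 7 lower (31.8%), beside 29.1% and 34.8% over all compared genes. The median of 0.31 turned to -0.41 with equal sums. The enzymes Hmgcs1 and Sc5d went from 31.9 to 417 FPKM (3.67) and from 9.87 to 215 FPKM (4.32), while Fdft1 went from 103 to 22.8 FPKM (-2.13).

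Of 22 glutathione and redox genes 8 were lower and 1 higher (median -0.63, and -1.44 with equal sums), with Sod1, the cytosolic superoxide dismutase, at 355 and 47.0 FPKM (-2.89). Heat shock genes were lower in 6 of 13 cases and higher in 1 (median -0.50, and -1.28 with equal sums). Hspa8 went from 53.4 to 2.30 FPKM (-4.05) and Hsp90aa1 from 121 to 7.12 FPKM (-3.91), whereas the higher gene was their regulator Hsf1 at 64.8 and 171 FPKM (1.39). Of 16 genes of the integrated and unfolded protein responses 8 were lower and 5 higher (median -1.03, and -1.62 with equal sums). Ern1, the endoplasmic reticulum sensor IRE1, went from 66.3 to 1371 FPKM (4.35), and Ddit3, also called CHOP, from 36.4 to 0.722 FPKM (-4.44). Of 14 genes of p53 and its targets 4 were higher and 2 lower, and the median of 0.41 turned to -0.19 with equal sums. Mdm2, the ligase that removes p53, stood at 25.0 and 310 FPKM (3.58).

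The labelled cell type was checked on 12 oocyte markers, and Zp1, Zp2, Zp3, Gdf9, Bmp15, Figla, Nobox, Nlrp5, Ddx4, Dazl, Npm2 and Mos ranged from 50.5 to 5094 FPKM in secondary follicle oocytes and from 4.37 to 6768 FPKM at MII. Markers of other ovarian cells were measured beside them. Of 18 granulosa cell markers 13 were compared, and 9 were higher and 1 lower. Of the 13, 6 reached 1 FPKM in secondary follicle oocytes and 12 at MII. Of the 9 higher genes, 6 passed the limit of 1 FPKM through MII alone, namely Inhba, Cyp11a1, Kitl, Gja1, Hsd17b1 and Fst, so the count is a description. The FPKM of all 18 summed to 59.8 in secondary follicle oocytes and 192 at MII, and to 53.7 and 174 in the animal. The highest levels in secondary follicle oocytes were those of Gata4 at 17.2 and 76.7 FPKM, Esr2 at 17.8 and 28.3 FPKM, and Nr5a2 at 15.3 and 8.01 FPKM. Amh, a product of granulosa cells of growing follicles, was at 1.13 and 0.0509 FPKM, Foxl2 at 0.102 and 0.647, and Fshr at 0.546 and a listed 0. Inha, an inhibin subunit, went from 2.78 to 19.3 FPKM in culture and stood at 2.98 and 2.55 FPKM in the animal. Cyp19a1, aromatase, went from 1.90 to 27.1 FPKM in culture and from 0.981 to 42.2 FPKM in the animal.

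Of 14 markers of expanded cumulus 3 were compared, and these 3, all higher, passed the limit of 1 FPKM through MII alone, so their count is a description. The list summed to 0.288 and 16.3 FPKM, with Tnfaip6, a matrix protein, at 0.0178 and 5.91 FPKM, Ptgs2 at 0.0517 and 4.77, and Areg and Pgr listed at 0 in both columns. Of 18 markers of gonadal stroma and theca 7 were compared, and 6 were higher and 1 lower (median 3.09, and 2.37 with equal sums). Of the 7, 4 reached 1 FPKM in secondary follicle oocytes, and the others passed the limit through MII alone. The lower one was Cst3, cystatin C, at 119 and 41.9 FPKM in culture and 124 and 0.958 FPKM in the animal. In the animal 2 of the 7 were higher and 2 lower (median 0.10), and with equal sums none was higher and 3 were lower (median -0.03). Lgals1, a galectin, went from 2.47 to 42.9 FPKM in culture and from 2.29 to 0.679 in the animal, and Vim, vimentin, from 0.411 to 14.9 and from 0.518 to 2.24. Among the same 18, Col1a1, Col1a2, Col3a1 and Lum were near 0 in both culture columns, with Col1a1 at 0.0271 and 0.290 FPKM and Lum listed at 0. The theca enzyme Cyp17a1 was at 0.0203 and a listed 0. Others were higher at MII in culture, with Hsd3b1 at 0.0348 and 12.7 FPKM, Sparc at 1.08 and 10.5, and Acta2 at 0.0204 and 1.89. Of 13 blood and endothelial markers 2 were compared, Pecam1 at 15.2 and 78.1 FPKM and Cd52 at a listed 0 and 14.1, and the haemoglobin genes were listed at 0 in both columns. The part of such cells in other differences was not tested, and in these pooled samples more cells of another type cannot be told apart from more RNA per cell.

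The step from secondary follicle to MII in the animal shares no sample with the step in culture. Of the same 11701 genes 3849 were higher (32.9%) and 4621 lower (39.5%) in the animal, and with equal sums 2227 (19.0%) and 6508 (55.6%). Over the 12118 genes with 1 FPKM or more in any of the 4 columns, 3100 genes were higher in both steps, which is 90.9% of those higher in culture and 77.7% of the 3988 higher in the animal. Another 3713 were lower in both, 91.2% of those lower in culture and 78.7% of the 4715 lower in the animal. Across these genes, which come from the same table and are not independent replicates, the differences of both steps had a Pearson r of 0.937 and a Spearman rho of 0.937.

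The differences in the animal were mostly the larger ones. In the 3100 genes higher in both steps the median culture difference was 2.07 against 2.83 in the animal, which had the larger difference in 2757. In the 3713 genes lower in both the medians were -1.995 and -2.62, and the animal had the larger difference in 3030. The animal columns had sums of 349772 and 975407 FPKM, a ratio of 2.79 against 1.76 in culture. With equal sums the animal difference was larger in 1187 of 1819 genes higher in both, with medians of 2.13 and 1.91, and in 4782 of 5547 lower in both, with medians of -3.05 and -2.22. Npm2 was an example at -2.58 in culture and -6.53 in the animal, where it went from 1847 to 19.0 FPKM.

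Opposite 2-fold calls were found in 7 genes, of which 6 were higher in culture and lower in the animal. With equal sums there were 10 such genes, 9 of them higher in culture and lower in the animal. Ptgds, prostaglandin D synthase, went from 4.04 to 42.0 FPKM in culture and from 7.63 to 0.887 in the animal. Dnmt3l went from 62.1 to 147 FPKM in culture and from 54.7 to 15.6 in the animal. Cldn25, a claudin-like gene, stood at 10.9 and 24.7 FPKM in culture against 12.1 and 4.11 in the animal, and Flna, Tuba1a and Tmsb15b2 were under 10 FPKM in each of the 4 columns. Alg8, a glycosyltransferase of N-glycan assembly, was the reverse case, going from 7.51 to 1.83 FPKM in culture and from 6.44 to 23.6 in the animal. Of the 7, Ptgds and Tmsb15b2 kept opposite calls with equal sums, while Dnmt3l, Cldn25, Flna and Tuba1a were no longer called in culture and Alg8 no longer in the animal.

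**Figure D5:**
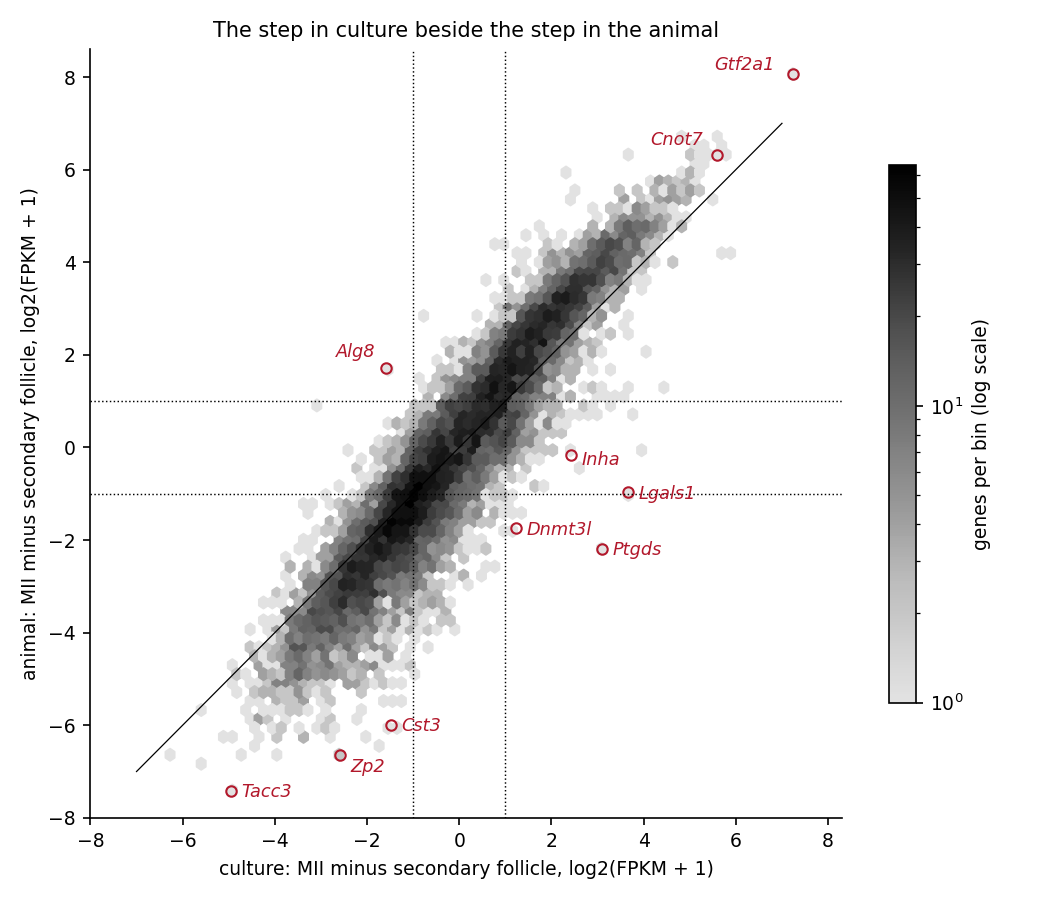
Log2(FPKM + 1) differences, MII minus secondary follicle, for the 11701 genes compared in culture, from culture on the horizontal axis and from the animal on the vertical one. Shading gives the number of genes per bin, with the solid line at equal differences and dotted lines at 2-fold. Genes lie along a band steeper than the line, and Ptgds, Dnmt3l and Alg8 lie in the quadrants of opposite direction.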

How the data were processed

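Poly(A)+ RNA was made into directional libraries and sequenced on a HiSeq2000, per the labels' protocols. The authors deposited 1 table of FPKM values, with 1 column per group and no value per sample. TopHat2, Bowtie2 2.0.13, Cufflinks, Cuffdiff 2.2.1 and mm10 are named in the submitters' processing notes, without their roles or order. The deposited FPKM carry no counts, so no count model, error or test was possible, and 0 columns belonged to no sample.

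From the table, log2(FPKM + 1) differences, MII minus secondary follicle, were taken over genes with 1 FPKM or more in either column, and 2-fold was the limit of a call. For equal sums, each column was scaled to the same total before the logarithm. That total was the mean of the 2 columns of a step. For genes called in both steps, with their medians and opposite calls, it was the mean of all 4 columns. With a pseudocount, counts under these totals can differ. Alternatives were quantile normalization, median centring, pseudocounts of 0.1 and 5, a filter of 5 FPKM, no filter, and ratios without a pseudocount. Of the code only the 2-fold call was run on simulated data, which does not test the lists, the 3′ ends or the comparison with the animal. Tools were Python 3.11.15, pandas 2.3.3 and NumPy 2.4.6.

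Of the 41 gene lists 8 were made by symbol pattern, and the others held 748 symbols. Of the symbols 741 were found, 7 of them by an older symbol. Lists could share genes. Named genes were the 12 largest differences each way at 10 FPKM or more without predicted, clone or small RNA symbols, up to 4 called members per list, a fixed set of oocyte genes, genes with opposite calls in the animal, and the 5 smallest differences at 100 FPKM or more in both columns. Further list members were named to show opposite directions within a list, after their values were seen. The comparison, lists and rules were chosen with earlier results of these data known.

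Untranslated regions came from GENCODE M21 transcripts of GRCm38, matched by symbol for 10824 of 11701 genes, 9860 with 150 bases or more. The transcript of a gene was its best-ranked principal coding isoform, with the longest 3′ untranslated region taken among equals. The comparison with reversed letters and the bins of A and T content were chosen after the data were seen.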

Additional observations from a re-analysis of the deposited data

How the results depend on the processing

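Genes higher at MII numbered 2157 with equal sums against 3409, and genes lower numbered 2498 with a pseudocount of 5 against 4070, because that pseudocount shrinks differences of low genes. Genes higher in both culture and the animal numbered 1819 with equal sums, genes lower in both 2302 with a pseudocount of 5, and opposite calls 2 with that pseudocount. The counts of higher and lower genes in culture stayed within 1.5 times under the other settings. Counts over both steps were run only with equal sums and that pseudocount, and their other values stayed within 1.5 times. The number of lists with a median past 2-fold was 20, and 14 to 25 under the alternatives. List medians changed sign in 7 lists with equal sums and in 4 with quantile normalization. The sign of each is given beside its list, and the kinesins, at -0.28, came to 0.11 with quantile normalization. Among 192 named gene differences, 4 lost their call with equal sums, 9 with a pseudocount of 5 and 5 with quantile normalization, while 5 gained one with quantile normalization. Median centring took a call from Amh and gave one to Gdf9.

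No paired analysis was possible because the table holds 1 value per group, and no sample was left out for the same reason. Read depth is unknown, and no counting error is given for low genes.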

Other observations

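Gene groups not described above held further differences between MII and secondary follicle oocytes in culture. Of 25 compared genes of meiotic prophase, a stage that oocytes enter before birth, 10 were higher and 5 lower (median 0.69). With equal sums 6 were higher and 7 lower (median 0.07). Tex12, a synaptonemal complex protein, went from 7.01 to 88.2 FPKM, a difference of 3.48, and Mei4, which promotes meiotic double-strand breaks, from 0.326 to 17.3 FPKM (3.79). Brca2, a recombination mediator, stood at 10.9 and 97.2 FPKM (3.04). Of 23 imprinted genes 10 were higher and 6 lower, and the median of 0.70 turned to -0.08 with equal sums. Mest went from 42.0 to 257 FPKM (2.58) and Igf2r from 5.40 to 33.9 FPKM (2.45), while the growth inhibitor Cdkn1c went from 15.5 to 0.234 FPKM (-3.74).

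Of 244 numbered zinc finger genes 107 were lower and 48 higher (median -0.77, and -1.29 with equal sums). Of 29 numbered centrosomal proteins 13 were higher and 6 lower (median 0.72), and with equal sums 8 were higher and 8 lower (median 0.07). Cep55, which acts in cell abscission, stood at 11.0 and 203 FPKM (4.09). Of 27 kinesins 10 were higher (37.0%) and 7 lower (25.9%), beside 29.1% and 34.8% over all compared genes. With equal sums 6 kinesins were higher and 12 lower. Their median of -0.28 came to -0.90 with equal sums and turned to 0.11 with quantile normalization. Kif18a, which limits chromosome movement on the spindle, went from 7.38 to 113 FPKM (3.77) and Kif17 from 124 to 13.1 FPKM (-3.16). Of 14 genes of early embryonic genome activation 4 reached 1 FPKM in either column, and 3 were lower, Eif1ax at 241 and 37.5 FPKM (-2.65) among them. Genes at 100 FPKM or more at both stages with the smallest differences on the deposited scale were 6430706D22Rik at 176 and 177 FPKM, Gm16515 at 113 and 112 FPKM, Pramef12 at 281 and 283 FPKM, St13 at 120.2 and 119 FPKM, and Rspo2 at 160.4 and 158 FPKM. With equal sums these 5 differed by -0.81 to -0.83, and with quantile normalization all 5 were lower by 2-fold or more.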
